A study of Bos taurus with 6 samples.

Results

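The transcripts described here are those of the cyclic AMP (cAMP) signaling machinery in cultured bovine granulosa cells (GC), from the enzymes that make and degrade cAMP to the kinase, anchoring proteins and transcription factors that act on it. Members were taken by a rule on gene symbols, which was set with earlier results of these data known. The rule covered adenylyl cyclases (ADCY), phosphodiesterases (PDE), catalytic and regulatory subunits of protein kinase A (PKA), the PKI inhibitors, A-kinase anchoring proteins (AKAP), RAPGEF exchange factors, CREB factors with CREM, and GNAS. This rule took 64 of the 26773 rows of the table, which are transcript clusters (the set of probes read as a gene) and some control rows, and the members carry 63 symbols because PDE8B has a pair of transcript clusters. Primary GC, pooled from small to medium-sized follicles of abattoir ovaries of cows with undefined cycle status, were plated at normal or at high density, with 3 cultures each. All cultures of both densities were kept without serum on collagen-coated plates for 9 days with FSH, IGF-1 and androstenedione, so no culture without FSH is included. The pooling over follicles and cows, and the culture apart from the other cells of the follicle, limit these cultures as a model of the follicle wall.

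Cyclic AMP is the second messenger of FSH and LH in GC. Both receptors act through the stimulatory G protein encoded by GNAS on membrane-bound adenylyl cyclases, and phosphodiesterases hydrolyse the product. The messenger binds the regulatory subunits of PKA and releases the catalytic subunits, which phosphorylate factors such as CREB1. Free catalytic subunits are blocked by the small PKI proteins, AKAPs hold the kinase at membranes and organelles, and the exchange factors RAPGEF3 and RAPGEF4 (EPAC proteins) carry a branch of the response that does not need PKA.

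The deposited values are log2 signals, and each log2 fold change is the mean at high density minus the mean at normal density. The array medians lay between 4.34 and 4.43. A level of 4.62, the 95th percentile of the array's 82 reporter control rows, was taken as background, and 40 of the 64 members had a mean above it at 1 density or both. A member is termed called when its fold change exceeded 1.5 in size with a p-value and an FDR below 0.05 in limma. With 3 cultures against 3, an exact permutation test cannot give a p below 0.1. Precision is limited by the number of arrays. The study's methods speak of 6 GC preparations that were pools over many cows, but do not tie each array to a pool, and the labels give none. The p-values then measure only the spread between these cultures, which may be in part technical. In RNA from whole cultures, fewer cells of a kind and less RNA per cell cannot be told apart.

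At high density 17 members were called, 10 higher and 7 lower, against 7.49% of all rows called in either direction, 3.97% higher and 3.51% lower. The called members were 26.6% of the list. Among the 40 members with a mean above background 13 were called (32.5%), against 12.8% of all rows above background. Called rises and falls occurred side by side among the cyclases, the cAMP-specific phosphodiesterases and the AKAPs. The median log2 fold change over the 64 members was −0.02, beside 0.02 over the whole table. The median size of the change was 0.21 for the members and 0.15 for the table. In 43 members (67.2%) the 3 high density signals lay wholly on one side of the 3 normal density signals, against 37.3% of the table. Among members above background this share was 80%, against 54.8% of all rows above background. An FDR below 0.05 at any fold change was reached by 25 members, 13 higher and 12 lower, with 19.1% of the table passing it, 8.64% higher and 10.4% lower. Without high density replicate 1 the number of calls was 13, and the 7 falls became 3.

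**Figure D1:**
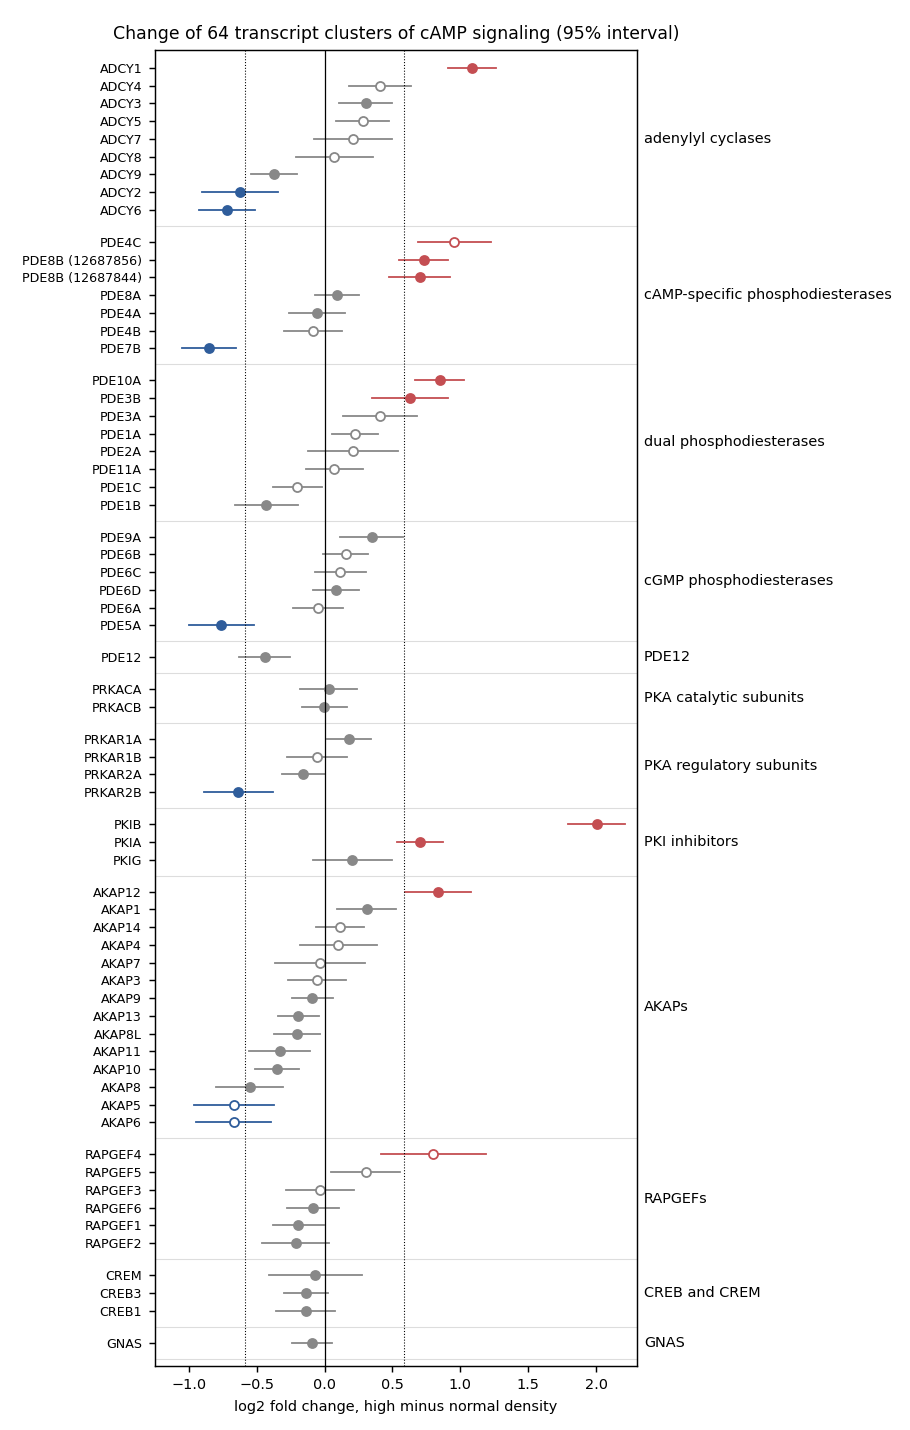
Log2 fold change (high minus normal density, x axis) with its 95% interval for the 64 member transcript clusters, ordered by family on the y axis. Red and blue points are called rises and falls, grey points are not called, open points have both group means at or below the background level, and dotted lines mark a fold change of 1.5; PKIB lies apart from the rest with a log2 fold change of 2.003.

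The clearest change of the list was found among the inhibitors of PKA. PKIB, which encodes the beta form of the protein kinase inhibitor (transcript cluster 12901396), had signals of 5.23, 5.18 and 5.06 in the normal density cultures and of 7.11, 7.30 and 7.06 in the high density cultures. All high density cultures were well above all normal density cultures. The log2 fold change was 2.003 (adjusted p = 2.15e-05 in limma, with a standard error of 0.09), a fold change of 4.01. Ranked by size of change, PKIB stood at position 96 of the 26773 rows and at position 77 among the rises.

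PKIA, the alpha form, was up-regulated as well. Its signals were 9.14, 9.05 and 9.00 at normal density and 9.74, 9.83 and 9.74 at high density, and the groups did not overlap. The log2 fold change was 0.70 (adjusted p = 7.14e-04 in limma, with a standard error of 0.07), a fold change of 1.63. The signals of PKIG, the gamma form, were between 4.76 and 5.13 at normal and between 5.003 and 5.34 at high density, so that the groups overlapped. Its log2 fold change of 0.20 was not called (95% interval −0.09 to 0.49, limma's adjusted p = 0.306). Of the 3 inhibitor genes, 2 therefore rose and PKIG did not pass the test.

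The catalytic subunits that these inhibitors bind showed signals at a similar height at both densities. PRKACA was measured at 7.98 ± 0.09 (SD, n = 3) at normal and 8.01 ± 0.13 at high density. Its log2 fold change of 0.03 had a 95% interval from −0.18 to 0.24 (limma's adjusted p = 0.857), and the sign turned with median centring of the arrays. For PRKACB the means were 8.39 ± 0.02 and 8.38 ± 0.07 (SD, n = 3), with a 95% interval of the log2 fold change from −0.16 to 0.16 and a sign that turned with a second quantile normalization. Both intervals lay within a fold change of 1.5 in either direction.

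Among the regulatory subunits PRKAR2B was down-regulated. This gene encodes the beta form of the type II subunit, which is bound by most AKAPs. Its signals were 9.80, 9.72 and 9.71 at normal density and 8.99, 9.35 and 8.99 at high density. High density replicate 2 lay nearest to the normal density cultures, yet below all of them. The log2 fold change was −0.63 (adjusted p = 0.00683 in limma, with a standard error of 0.11), just beyond the fold change threshold, and was −0.57 without high density replicate 1 or without high density replicate 3, when PRKAR2B was not called.

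The other regulatory subunits were not called. PRKAR1A, the type I alpha form, had a difference of 0.18 on the log2 scale between 7.84 ± 0.03 at normal and 8.03 ± 0.06 (SD, n = 3) at high density (95% interval 0.02 to 0.34, limma's adjusted p = 0.113). PRKAR2A, the type II alpha form, had a log2 fold change of −0.16 (95% interval −0.31 to 0.0018, limma's adjusted p = 0.159). For both genes the groups did not overlap, as was the case in 54.8% of all rows above background. PRKAR1B lay below the background level in all 6 cultures.

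**Figure D2:**
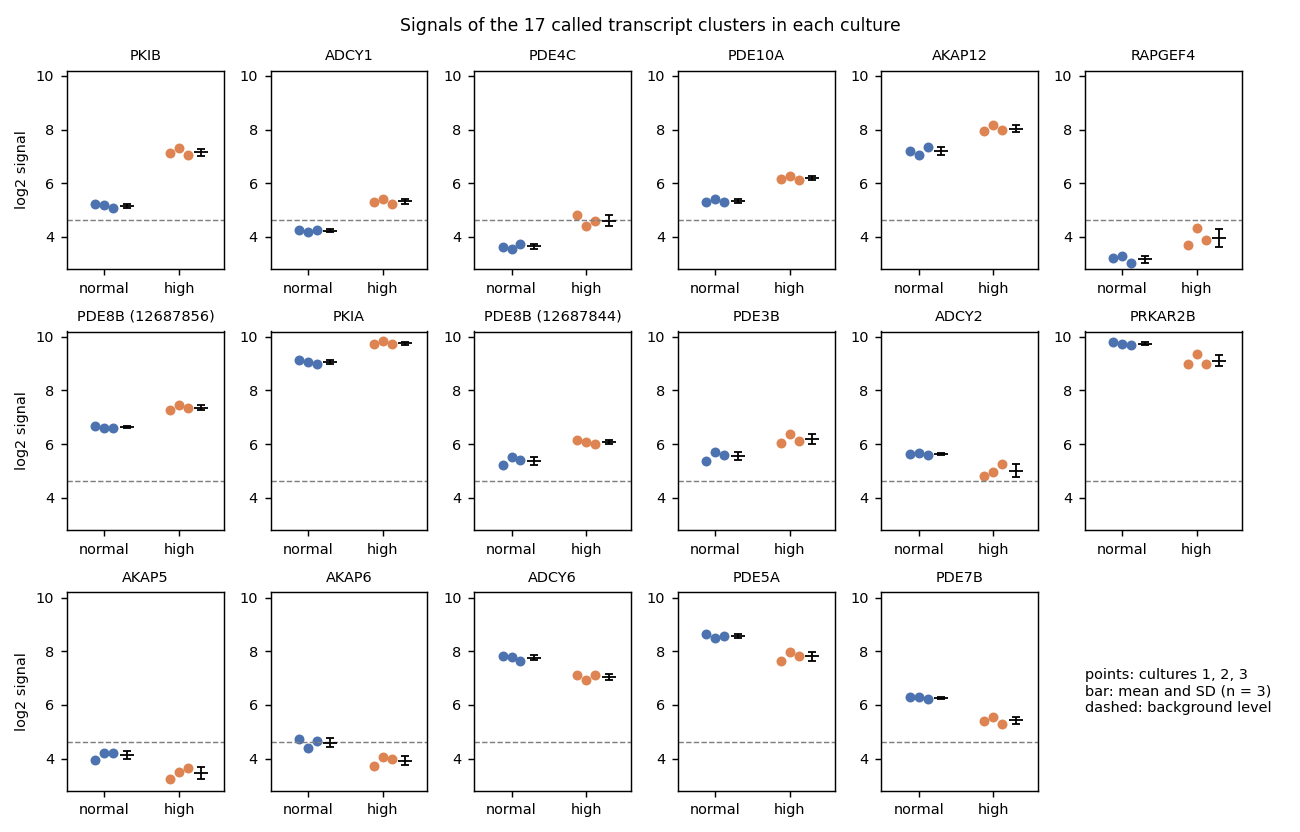
Log2 signal (y axis) of the 17 called transcript clusters in each of the 3 normal density (blue) and 3 high density (orange) cultures, with mean and SD (n = 3) beside the points and the background level of 4.62 as a dashed line. In none of the panels do the groups overlap, which the call on these same signals makes likely. All points of RAPGEF4 and AKAP5 lie below the background level.

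Of the 9 adenylyl cyclases 3 were called (33.3%, against 7.49% of all rows), ADCY1 higher and ADCY2 and ADCY6 lower. ADCY1, a cyclase stimulated by calcium and calmodulin (transcript cluster 12853082), had signals of 4.25, 4.18 and 4.27 at normal density and 5.31, 5.42 and 5.24 at high density. The normal density signals were all below, and the high density signals all above, the array's background. A log2 fold change of 1.09 was found (adjusted p = 1.30e-04 in limma, with a standard error of 0.08), and measured from the background level ADCY1 was at least 1.63-fold higher at high density.

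ADCY6, a cyclase inhibited by calcium, was clearly above background throughout. The signals were 7.83, 7.80 and 7.66 at normal density and 7.10, 6.92 and 7.12 at high density, without overlap. The log2 fold change was −0.72 (adjusted p = 0.00146 in limma, with a standard error of 0.09). ADCY2, which responds to G protein beta-gamma subunits, had signals of 5.65, 5.66 and 5.59 at normal density and of 4.80, 4.97 and 5.27 at high density. The high density cultures were spread more widely than the normal density ones, with an SD of 0.24 against 0.04. ADCY2 fell by 0.62 on the log2 scale (adjusted p = 0.0111 in limma, with a standard error of 0.12), and by 0.51 without high density replicate 1, when it was not called.

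A further 3 cyclases passed the FDR but not the fold change threshold. ADCY9, a widely expressed form, had a log2 fold change of −0.37 (adjusted p = 0.0118 in limma, with a standard error of 0.07), and ADCY3 of 0.30 (adjusted p = 0.0436 in limma, with a standard error of 0.08). The signals of ADCY4 were 3.62 ± 0.12 and 4.02 ± 0.13 (SD, n = 3; limma's adjusted p = 0.0267), below background in all cultures. ADCY5, ADCY7 and ADCY8 also lay below background in every culture and did not pass the FDR. GNAS, the G protein subunit that activates these enzymes, was measured at 11.51, 11.46 and 11.48 at normal density and 11.42, 11.37 and 11.38 at high density. The groups did not overlap, but the log2 fold change was only −0.09 (95% interval −0.24 to 0.05, limma's adjusted p = 0.357).

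The phosphodiesterase families that act on cyclic nucleotides, with the subunit gene PDE6D counted, were represented by 21 transcript clusters of 20 genes. Of the transcript clusters 5 were called higher, the pair of PDE8B among them, and 2 lower, 33.3% against 7.49% of all rows. Among the enzymes specific for cAMP, the PDE4, PDE7 and PDE8 families, PDE8B was higher at high density by both of its transcript clusters. PDE8B is a high-affinity enzyme known from steroid-producing tissues. Transcript cluster 12687856 gave signals of 6.68, 6.60 and 6.60 at normal and 7.27, 7.47 and 7.33 at high density, and transcript cluster 12687844 gave 5.21, 5.53 and 5.39 against 6.15, 6.07 and 6.01. The log2 fold changes of 0.73 (adjusted p = 7.96e-04 in limma, with a standard error of 0.08) and 0.70 (adjusted p = 0.00244 in limma, with a standard error of 0.10) were alike. Its relative PDE8A, at 8.05 ± 0.07 and 8.14 ± 0.0013 (SD, n = 3), had a log2 fold change of 0.09 and was not called (95% interval −0.07 to 0.25, limma's adjusted p = 0.402).

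PDE7B moved the other way. Its signals were 6.30, 6.30 and 6.22 at normal density and 5.42, 5.56 and 5.29 at high density, without overlap. The log2 fold change was −0.85 (adjusted p = 6.36e-04 in limma, with a standard error of 0.09), the largest fall of the list. PDE4C had signals of 3.64, 3.55 and 3.74 at normal density and 4.81, 4.40 and 4.58 at high density (limma's adjusted p = 0.00137). Of these 6 signals only that of high density replicate 1 exceeded the background level, so no fold change is given. The other PDE4 genes of the list were not called. For PDE4A the log2 fold change was −0.06 (95% interval −0.26 to 0.15) and for PDE4B, below background in all cultures, the signals were 4.35 ± 0.06 and 4.27 ± 0.15 (SD, n = 3).

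Of the enzymes that accept both cAMP and cGMP, the PDE1, PDE2, PDE3, PDE10 and PDE11 families, 2 of 8 were called (25%, against 7.49% of all rows), both higher. PDE10A had signals of 5.29, 5.42 and 5.29 at normal density and 6.17, 6.26 and 6.11 at high density. These groups were separated by far more than their spread, and the log2 fold change was 0.85 (adjusted p = 3.89e-04 in limma, with a standard error of 0.08). PDE3B, which cGMP inhibits and insulin signaling activates, had signals of 5.38, 5.70 and 5.58 against 6.05, 6.39 and 6.11. Its log2 fold change of 0.63 (adjusted p = 0.0103 in limma, with a standard error of 0.12) dropped to 0.54 without normal density replicate 1 and to 0.53 without high density replicate 2, when it was not called. PDE1B, stimulated by calmodulin, passed the FDR with a log2 fold change of −0.43 (adjusted p = 0.0225 in limma, with a standard error of 0.10) but not the fold change threshold. The remaining 5 genes of these families, PDE1A, PDE1C, PDE2A, PDE3A and PDE11A, lay below background in every culture.

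Among the phosphodiesterases acting on cGMP, PDE5A was down-regulated. PDE5A is the cGMP-specific enzyme of smooth muscle and other tissues. It had signals of 8.66, 8.50 and 8.57 at normal density and of 7.65, 7.99 and 7.81 at high density. The highest high density signal was below the lowest at normal density, and the log2 fold change was −0.76 (adjusted p = 0.00223 in limma, with a standard error of 0.10). PDE9A, another cGMP-specific enzyme, had a log2 fold change of 0.35 (adjusted p = 0.0482 in limma, with a standard error of 0.10), below the fold change threshold. PDE6A, PDE6B and PDE6C, the catalytic subunits of photoreceptors, lay below background in every culture. PDE6D, a subunit that also carries prenylated proteins, was well above background and had a log2 fold change of 0.09 (limma's adjusted p = 0.461). The symbol rule also took PDE12, an enzyme that degrades short oligoadenylates and no cyclic nucleotide, with a log2 fold change of −0.44 (adjusted p = 0.00892 in limma, with a standard error of 0.08).

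**Figure D3:**
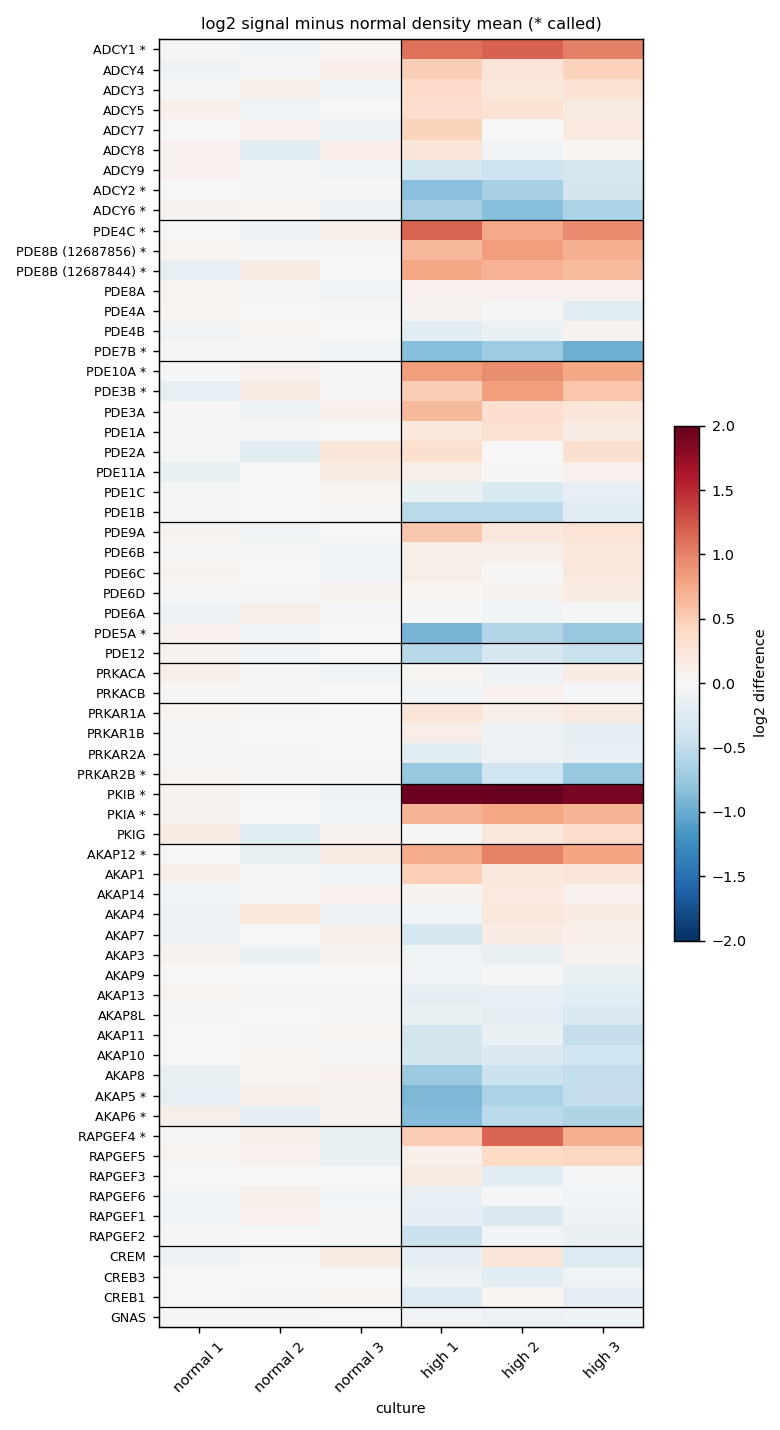
Difference of each culture's log2 signal from the mean of the normal density cultures (colour scale) for the 64 members (rows, by family) in the 6 cultures (columns), with asterisks on called members. The 3 high density columns share the direction of change in all called rows, which the call on these same signals makes likely. PKIB has the strongest colour. Of the 7 called falls, high density replicate 2 is nearest to normal density in 4 and replicate 3 in 3. Of the 10 called rises, replicate 3 is nearest in 5, replicate 1 in 4 and replicate 2 in 1.

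The AKAPs were represented by 14 genes, of which AKAP12 was called higher and AKAP5 and AKAP6 lower, 21.4% against 7.49% of all rows. AKAP12 (gravin), a scaffold at the plasma membrane that binds PKA and protein kinase C, had signals of 7.20, 7.06 and 7.34 at normal density and 7.94, 8.18 and 7.99 at high density. The groups were clearly apart, with a log2 fold change of 0.84 (adjusted p = 0.00152 in limma, with a standard error of 0.10).

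The called falls of this family were at low signal. AKAP5, a membrane scaffold best known from synapses, had signals of 3.96, 4.22 and 4.20 against 3.23, 3.50 and 3.66 (limma's adjusted p = 0.0103). AKAP6, which anchors PKA at the nuclear envelope of muscle cells, had 4.71, 4.41 and 4.66 against 3.73, 4.05 and 3.99 (limma's adjusted p = 0.00764). Only normal density replicates 1 and 3 of AKAP6 exceeded the background level, so no fold change is given for either gene, and without high density replicate 1 neither was called.

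Of the AKAPs above background, 2 more passed the FDR. AKAP8, a nuclear anchoring protein, had signals of 6.21, 6.41 and 6.44 at normal density and 5.63, 5.92 and 5.86 at high density. Its log2 fold change of −0.55 (adjusted p = 0.0109 in limma, with a standard error of 0.11), a fold change of 1.47, stayed just short of the threshold, and it was called at −0.63 without normal density replicate 1, at −0.61 without high density replicate 2 and at −0.59 with median centring. AKAP10, found at mitochondria and endosomes, had a log2 fold change of −0.35 (adjusted p = 0.0132 in limma, with a standard error of 0.07). AKAP1, AKAP8L, AKAP9, AKAP11 and AKAP13, all above background, had log2 fold changes of 0.31, −0.20, −0.09, −0.33 and −0.19 in this order and did not pass the FDR. AKAP3, AKAP4 and AKAP14, anchoring proteins of sperm and cilia, and AKAP7 were below background in the group means of both densities.

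Among the exchange factors RAPGEF4 (EPAC2) was called, at low signal. It had 3.19, 3.29 and 3.03 at normal density and 3.68, 4.34 and 3.89 at high density (limma's adjusted p = 0.0142). All 6 signals were below background, so the size of this difference is not given as a fold change, and without normal density replicate 3 the adjusted p was 0.0596. RAPGEF3 (EPAC1) was likewise below background in all cultures, at 3.95 ± 0.01 and 3.92 ± 0.20 (SD, n = 3). RAPGEF1, RAPGEF2 and RAPGEF6, related exchange factors for Ras-like proteins, were above background and had log2 fold changes of −0.19, −0.21 and −0.08, none of which passed the FDR. RAPGEF5 had both group means below background, at 4.29 ± 0.12 and 4.59 ± 0.17 (SD, n = 3; limma's adjusted p = 0.0980).

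The CREB genes were not called, although all 3 were above background. CREB1, the principal nuclear target of PKA, had signals of 8.56, 8.53 and 8.63 at normal density and 8.32, 8.61 and 8.37 at high density, with a log2 fold change of −0.14 (95% interval −0.36 to 0.08, limma's adjusted p = 0.351). High density replicate 2 lay within the range of the normal density cultures. CREM, whose gene also yields the cAMP-induced repressor ICER, had a log2 fold change of −0.07 (95% interval −0.41 to 0.27, limma's adjusted p = 0.796). CREB3, which is anchored in the endoplasmic reticulum, had a log2 fold change of −0.14 (95% interval −0.30 to 0.03, limma's adjusted p = 0.230).

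**Figure D4:**
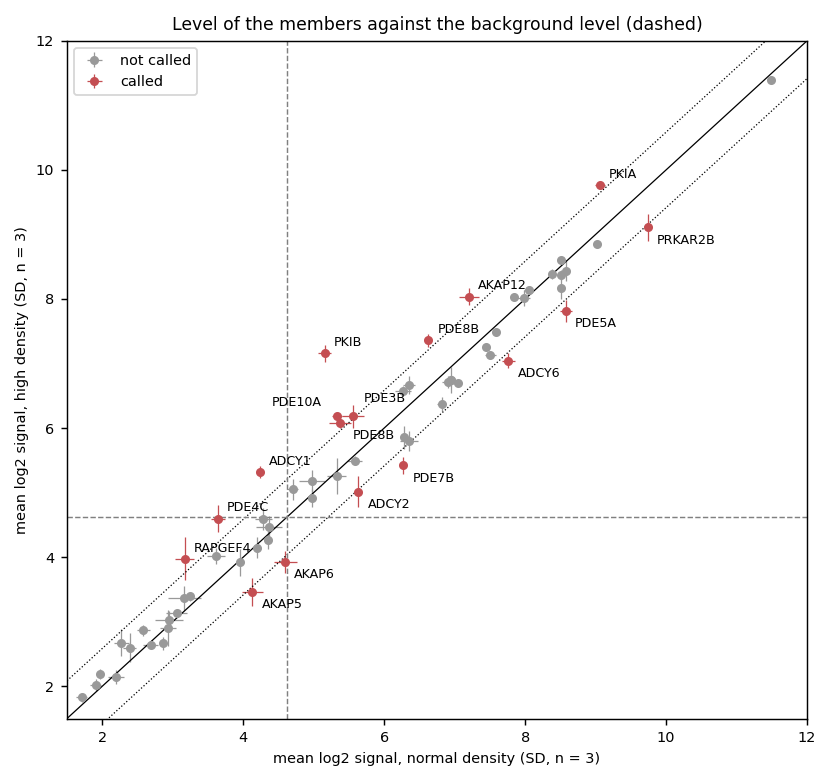
Mean log2 signal at normal density (x axis) against that at high density (y axis) for the 64 members, with SD (n = 3), called members in red, the background level of 4.62 as dashed lines and a fold change of 1.5 as dotted lines. GNAS, at 11.48 and 11.39, lies near the diagonal at the upper end, and the called members PDE4C, RAPGEF4, AKAP5 and AKAP6 have both means at or below the background level.

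Related genes that moved unequally were set against each other within each array, in 7 pairs of transcript clusters chosen after their values were seen. Each difference is given relative to its mean at normal density, so that only changes and not levels of different genes are compared. PKIB minus PRKACA was 1.91, 2.25 and 1.76 higher in the high density arrays than the normal density mean, while the normal density arrays lay between −0.03 and 0.05. PRKAR2B minus PRKAR1A changed by −0.81, with high density arrays at −0.99, −0.52 and −0.93. PRKAR2B minus PRKAR2A changed by −0.48. Relative to each of the alpha subunits the type II beta subunit was thus lower in all high density arrays.

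PDE10A minus PDE7B changed by 1.70. AKAP12 minus AKAP10 was 1.10, 1.27 and 1.18 higher in the high density arrays, and the PDE8B transcript clusters minus PDE8A changed by 0.61 and 0.64. These pairs are a description without a test, since they were chosen because their genes moved unequally.

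**Figure D5:**
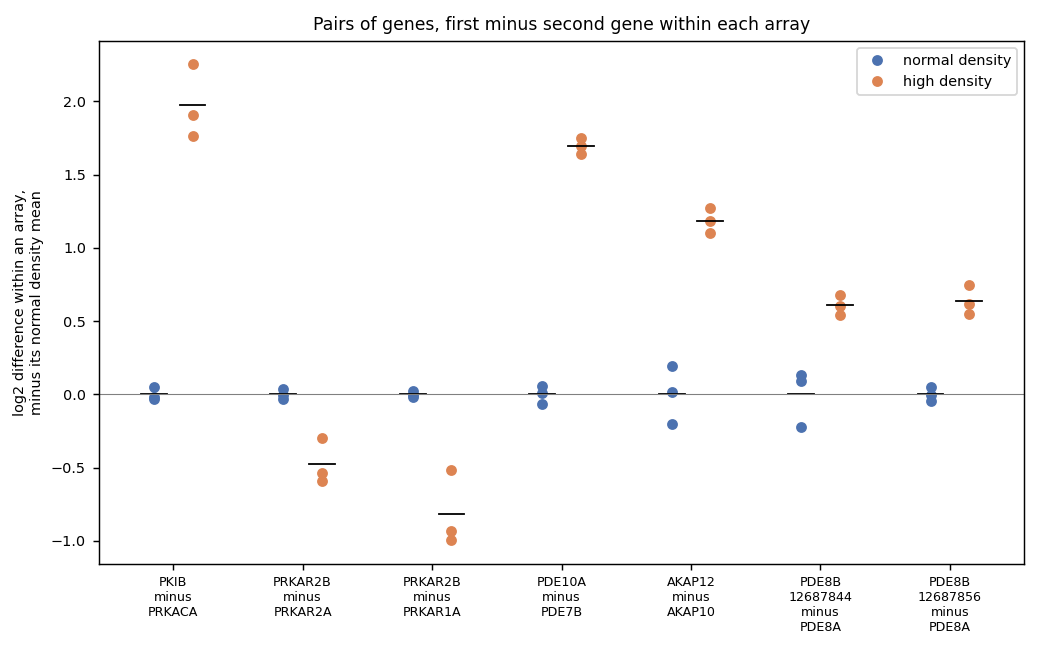
Log2 difference between the genes of a pair within each array, minus the mean of that difference at normal density (y axis), for 7 pairs (x axis) in 3 normal density (blue) and 3 high density (orange) cultures, with group means as bars. The high density arrays lie between 0.54 and 2.25 for the pairs that rose and between −0.99 and −0.30 for those led by PRKAR2B.

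Genes upstream of the cyclases were read from a list of receptors and G protein subunits, of which 34 were found and 3 called higher and 2 lower, 14.7% against 7.49% of all rows. This share is a description without a test, since the list was drawn up with earlier results known. FSHR and LHCGR were reported as changed by the study. FSHR, the receptor for the FSH added to all cultures, was called lower, with signals of 6.75, 7.16 and 6.90 against 4.68, 4.97 and 4.53 and a log2 fold change of −2.21 (adjusted p = 1.01e-04 in limma, with a standard error of 0.14). It was the only called gene of this list with a mean above background. LHCGR was called lower and the prostaglandin E receptors PTGER2 and PTGER3 and the G protein subunit GNAL higher, all with both means below background.

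Other genes that bind, export or transmit cAMP, or work beside PKA, were found for 42 symbols with 44 transcript clusters, of which 2 were called higher and 2 lower. This share of 9.09% was close to the 7.49% of all rows. PRKX, a kinase whose catalytic domain resembles that of PKA, had signals of 6.78, 6.71 and 6.70 at normal density and 7.62, 7.43 and 7.67 at high density, with a log2 fold change of 0.85 (adjusted p = 6.51e-04 in limma, with a standard error of 0.09). EZR, which encodes the membrane linker ezrin, also an AKAP by function, had a log2 fold change of 0.61 (limma's adjusted p = 0.00112). CAP2, an actin regulator named for its link to adenylyl cyclase in yeast, had a log2 fold change of −1.06 (limma's adjusted p = 1.42e-04). Of the coactivators of CREB, CRTC1, CRTC2, CRTC3 and CREBBP did not pass the FDR.

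From a list of genes that textbooks give as targets of CREB or as responsive to cAMP, 35 transcript clusters of 34 genes were measured. Of these, 8 were called higher and 5 lower, 37.1% against 7.49% of all rows. A mean above background was found for 23 of the 35, and 12.8% of all rows above background were called. The list was drawn up with earlier results of these data known. CYP19A1, INHA, SST and RGS2 were reported as changed by the study, so the share of the list is a description without a test. NR4A1, an immediate early nuclear receptor, rose by 1.75 on the log2 scale, with means of 5.97 ± 0.12 and 7.72 ± 0.19 (SD, n = 3; limma's adjusted p = 9.73e-05). RGS2, a regulator of G protein signaling, was at least 2.94-fold higher at high density. CYP19A1, the aromatase gene, was at least 3.70-fold lower, and INHA, SST and INHBA had log2 fold changes of −2.16, −1.98 and −1.37. The list thus held called genes of both directions, and its median log2 fold change was 0.07. Several of these genes are also marker genes of GC, and their part in the changes of the cAMP machinery was not tested.

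The labelled cell type was checked against marker genes. All 10 GC markers, FOXL2, GATA4 and NR5A1 among them, had a mean above background at 1 density or both. At high density 5 of the 10 were called lower, FSHR, CYP19A1, INHA, INHBA and FOXL2, against 3.51% of all rows. By sign 8 markers fell and 2 rose. The rises were CYP11A1, with a log2 fold change of 0.26 (limma's adjusted p = 0.0294), and GATA4, with 0.12 (limma's adjusted p = 0.419). The mean log2 signal of the GC markers was between 8.22 and 8.41 in the normal density cultures and between 7.31 and 7.39 in the high density cultures. The 5 fibroblast markers averaged between 7.41 and 7.59 against between 8.18 and 8.30, with COL1A1 and THY1 called higher. Of the theca markers CYP17A1 was below background in all cultures and INSL3 was called higher, with a mean of the 4 markers between 4.99 and 5.02 against between 5.48 and 5.62. The 4 erythroid markers averaged between 3.20 and 3.22 against between 4.62 and 4.97, where only HBA exceeded the background level. All 5 leukocyte markers and, except VWF, the 5 endothelial markers were below background in every culture. The mean of the 5 endothelial markers was between 3.16 and 3.20 against between 3.27 and 3.31, and that of the leukocyte markers between 3.36 and 3.47 against between 3.33 and 3.48. The ranges of the densities overlapped only for the leukocyte markers. The endothelial means were below background at both densities, with 3 markers higher by sign, 2 lower and none called. INSL3, with a log2 fold change of 1.82, was the only called theca marker. HBA, at least 26.98-fold higher, was the only called erythroid marker. The part of other cell types in the changes was not tested.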

How the data were processed

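Each of 6 cultures was measured on an Affymetrix whole-transcript array for bovine genes. Scans were processed by the authors in Expression Console by the RMA procedure, and the deposited log2 signals per transcript cluster are already background reduced, normalized and summarized. These were used as deposited, with the table's symbols, all of which are symbols of the RefSeq table for ARS-UCD2.0, and it holds 0 columns of other samples. The array annotation's genome build was not given in the sources used here, so no coordinates are given.

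Groups were taken from the sample descriptions. Differences were tested over all 26773 rows, control rows included, by lmFit and eBayes of limma 3.58.1 (R 4.3.3) without covariates, with Benjamini-Hochberg adjustment, at the methods' thresholds (fold change 1.5, p and FDR 0.05). The script was tested on simulated data. Where all cultures of a density were at or below background, "at least" fold changes replace each signal there by the background level if higher. Figures were drawn with matplotlib 3.10.9.

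Members and lists were chosen with earlier results of these data known. Named are all called members, those passing the FDR, otherwise the smallest p of a family, a fixed set of core genes, and up to 6 called genes per context list, of which 1 is not reported here. Members given only by a value, range or background remark fall outside this rule. Alternatives were the ANOVA named in the methods, run here as the equivalent equal-variance t-test, its form with unequal variances (Welch), trended robust variances, array weights, replicate block, median centring, a second quantile normalization, removal of dim rows, other thresholds and leaving out each culture. A planned search of promoters for cAMP response elements was not run, as no promoter sequences were used here.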

Additional observations from a re-analysis of the deposited data

How the results depend on the processing

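The 17 calls among members, 10 higher and 7 lower, were between 13 and 17 with each culture left out in turn, the rises between 9 and 10 and the falls between 3, without high density replicate 1, and 8. The methods' ANOVA, run as a t-test between the densities, gave 12 calls with 4 falls, its Welch form 7 calls, 6 higher and 1 lower, and the FDR alone, without a fold change threshold, 25 calls with 12 falls. With the replicate block 17 members were called. Correlations of deviations between same-numbered cultures were from −0.05 to 0.05, and 1 of 3 normal density cultures correlated best with its own number. With 3 cultures per density these correlations cannot decide whether same-numbered cultures shared a cell pool, and the labels do not say. Of the 17 called members 7 were called under all 15 alternatives run for each, which were ADCY1, ADCY6, PDE10A, PDE8B (12687856), PKIA, PKIB and AKAP12. Signs turned only in members that were not called. PRKACA changed by −0.014 with median centring, PRKACB by 0.026 with a second quantile normalization and RAPGEF3 by 0.0038 with array weights. With each culture left out in turn the log2 fold change lay between −0.12 and 0.019 for PDE4A, −0.028 and 0.097 for PRKACA, −0.043 and 0.024 for PRKACB, −0.15 and 0.013 for PRKAR1B, −0.14 and 0.068 for RAPGEF3, and −0.23 and 0.032 for CREM. In each of these the sign turned without high density replicate 3, except in RAPGEF3, where it turned without high density replicate 2. Other omissions also turned the sign in some members, so that it turned in 2 fits for PRKACA, 4 for PRKACB and 2 for CREM. Removal of rows at or below background left no value for members there, PRKAR1B and RAPGEF3 among them. Signals near background limit PDE4C, RAPGEF4, AKAP5, AKAP6 and the size of the rise of ADCY1. Median centring moved the median change of the whole table from 0.02 to −0.03.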

Other observations

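In 2 members a pair of normal density cultures had equal signals to all deposited decimals. These were PDE7B, with 6.30 in normal density replicates 1 and 2, and PRKAR1B, with 4.19 in normal density replicates 2 and 3. Equal signals in some pair of cultures were found in 4.77% of all rows of the table.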
